A study of Mus musculus with 23 samples.

Results

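Klf2, Klf3, Klf4 and Klf9 belong to the Krüppel-like factors, a family of zinc finger transcription factors that bind GC-rich and CACCC-containing DNA. The 4 genes were taken by name from the 8251 genes measured, with every one of the 7 probe sets that the platform annotation assigns to them alone, of 12488 on the array. Klf4 and Klf3 were selected on measured values of these same arrays, Klf4 on its difference after methamphetamine and Klf3 on the way that difference diverged between lines. Their values after methamphetamine are therefore given as a description, without a test. Klf2 and Klf9 were tested in every comparison, and all 4 genes in the comparison of the lines averaged over injections, which the choice did not use.

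The tissue was nucleus accumbens, the ventral part of the striatum, from mice of selectively bred lines derived from C57BL/6J x DBA/2J stock. HMACT mice were bred for a high and LMACT mice for a low acute response to methamphetamine, a stimulant that releases dopamine. Mice received a challenge injection, and brains were taken 1 hour later. The 4 groups were HMACT after 2 mg/kg methamphetamine (6 arrays, mean pool ages 77.25 to 150 days), HMACT after saline (6 arrays, 77.25 to 154 days), LMACT after 2 mg/kg methamphetamine (5 arrays, 60 to 114.75 days) and LMACT after saline (6 arrays, 61.5 to 127.5 days). Each array measured RNA from a 4-way tissue pool, and every group had an injection.

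Within groups, 62.1% of the residual variance of 5308 genes lay along a single axis. On it 4 of the 23 arrays stood apart, with scores of 41.8 to 65.0 against -22.8 to 23.8 for the others. These were replicates 3 and 5 of HMACT after saline, replicate 3 of HMACT after methamphetamine, and replicate 4 of LMACT after methamphetamine. Another array, LMACT methamphetamine replicate 5, had the largest 3' minus 5' signal difference of the control probe sets, 4.57, against 1.07 to 2.80 on the other 22. Of 6 striatal projection neuron markers on the array, 5 lay above the floor on every array, among them Penk and Tac1, neuropeptide genes, and Drd2, a dopamine receptor gene; Rgs9 was at the floor throughout. In pooled tissue, fewer cells of a type and less RNA per cell cannot be told apart.

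KLF4 is known as an early response gene and as a reprogramming factor. KLF2 and KLF4 are close relatives that shear stress induces in vascular endothelium through the kinase ERK5 and MEF2 factors, and KLF2 also keeps T cells quiescent. KLF3 is mainly a repressor that recruits the corepressor CtBP, and KLF9 is induced by glucocorticoids and thyroid hormone and takes part in neuronal maturation.

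The promoters are shown so that the DNA next to the start sites of the 4 genes can be compared. Each line is the 250 bases before the RefSeq transcription start, read along the gene, in the GRCm38.p6 build. The windows are chr4:55532476-55532725 for Klf4 (minus strand), chr8:72318812-72319061 for Klf2 (plus strand), chr5:64803271-64803520 for Klf3 (plus strand) and chr19:23140976-23141225 for Klf9 (plus strand). Capitals mark the core TGACG of the cyclic AMP response element on either strand and, in Klf2 alone, the MEF2 element CTANNNNTAG.
Klf4: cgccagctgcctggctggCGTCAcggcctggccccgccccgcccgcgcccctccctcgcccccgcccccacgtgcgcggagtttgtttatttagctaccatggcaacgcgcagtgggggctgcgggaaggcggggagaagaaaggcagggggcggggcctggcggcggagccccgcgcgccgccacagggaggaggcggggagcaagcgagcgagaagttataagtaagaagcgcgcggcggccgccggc
Klf2: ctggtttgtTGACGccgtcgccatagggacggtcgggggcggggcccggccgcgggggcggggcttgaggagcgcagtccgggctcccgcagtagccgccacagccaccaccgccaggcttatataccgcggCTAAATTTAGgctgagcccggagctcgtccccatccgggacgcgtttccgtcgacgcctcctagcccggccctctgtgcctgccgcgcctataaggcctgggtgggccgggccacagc
Klf3: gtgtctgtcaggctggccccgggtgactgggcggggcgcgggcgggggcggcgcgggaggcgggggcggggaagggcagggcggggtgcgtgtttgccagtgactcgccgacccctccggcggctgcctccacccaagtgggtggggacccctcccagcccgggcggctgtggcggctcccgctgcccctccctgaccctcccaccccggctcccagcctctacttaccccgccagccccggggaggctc
Klf9: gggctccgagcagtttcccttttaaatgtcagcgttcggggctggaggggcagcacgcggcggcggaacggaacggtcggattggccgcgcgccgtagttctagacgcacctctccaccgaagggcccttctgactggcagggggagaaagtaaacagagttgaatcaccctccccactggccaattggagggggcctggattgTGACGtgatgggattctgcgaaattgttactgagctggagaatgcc

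The core TGACG, searched on both strands, occurred once in the windows of Klf4, Klf2 and Klf9, starting at positions -232, -241 and -46, and was not in that of Klf3. Of 32851 mouse promoter windows of this length, 17.8% hold it. The element CTANNNNTAG was found at position -118 of Klf2, in letters ctaaatttag, and in none of the other 3 windows; 3.20% of all windows hold it. The GC box GGGCGG, which SP and KLF proteins bind, had 4 matches in Klf4, 2 in Klf2, 6 in Klf3 and 0 in Klf9, and 32.7% of all windows hold at least 1. CACCC, a binding element of the family itself, had 0 matches in Klf4, 1 in Klf2, 5 in Klf3 and 1 in Klf9, against 52.0% of windows with a match; in Klf3 the match at -167 shares a base with the GC box at -172. These are matches of letters and not measured binding sites.

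Klf4, described first because it had the largest difference after methamphetamine of the 4 genes, was higher after the drug in both lines. Its values in HMACT ran from 5.36 to 5.96 with a median of 5.52 after methamphetamine, against 3.35 to 5.19 with a median of 4.81 after saline. The lowest saline value belongs to replicate 3, one of the arrays that stand apart, and the ranges did not overlap. In LMACT the 5 values after methamphetamine were 5.39, 5.68, 5.79, 6.29 and 5.75, against 5.02 to 5.30 with a median of 5.25 after saline. Again the groups did not overlap. The means in HMACT were 5.60 ± 0.22 after methamphetamine and 4.60 ± 0.67 after saline (SD, n = 6 each), and in LMACT 5.78 ± 0.33 (SD, n = 5) and 5.19 ± 0.12 (SD, n = 6).

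**Figure D1:**
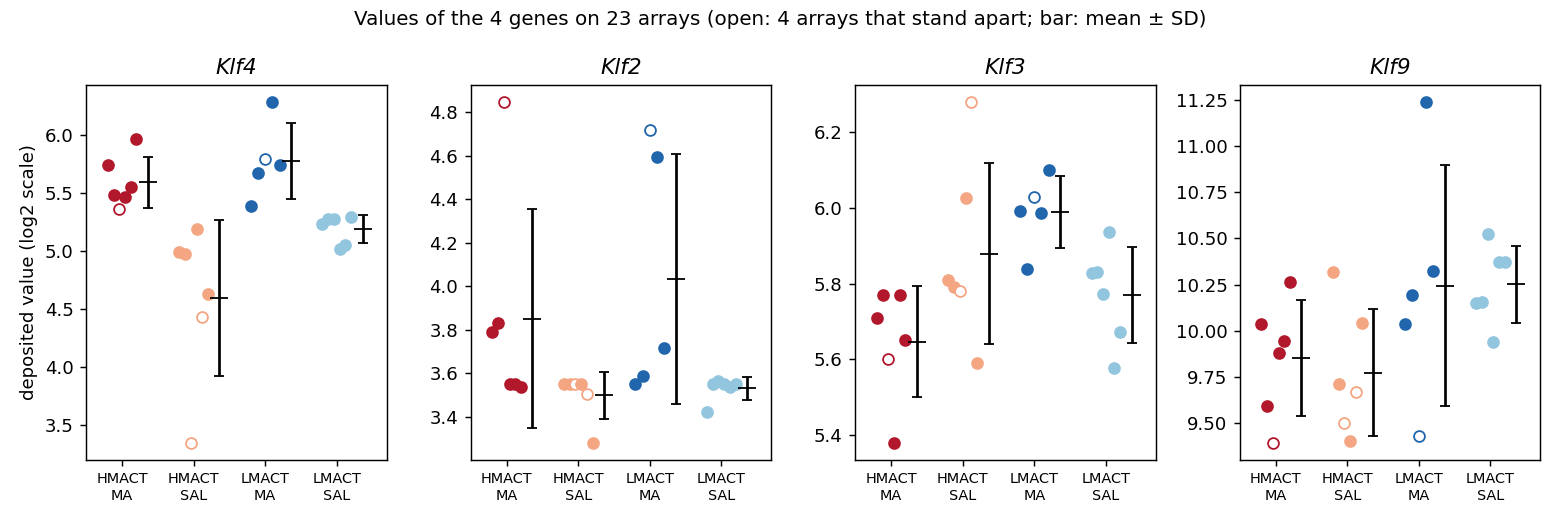
Deposited values on the log2 scale (y axis) of Klf4, Klf2, Klf3 and Klf9 on all 23 arrays, by line (HMACT, LMACT) and injection (MA, methamphetamine; SAL, saline); each point is 1 array in order of replicate number, open points are the 4 arrays that stand apart, and bars give the mean and SD. For Klf4 the methamphetamine points lie above all saline points of the same line, and for Klf2 most points sit at 3.55.

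In HMACT the Klf4 difference of methamphetamine minus saline was 1.00 on the log2 scale (SE 0.227), or 2.00-fold, and in LMACT it was 0.59 (SE 0.238), or 1.502-fold. The mean over lines was 0.79 (SE 0.165). In HMACT all methamphetamine arrays lay above all saline arrays for 0.0606% of the 8251 genes, and in LMACT for 0.436%. Only 3 genes, or 0.0364%, did so in both lines: Klf4, the antiproliferative early gene Btg2 and the stress-induced factor gene Atf3, the last 2 named after their values were seen. The choice of Klf4 rests on this same contrast, so nothing is read from these shares about Klf4. In limma's fit 0.0242% of genes passed an adjusted p under 0.05 for the mean of both lines, 0.0121% in HMACT and 0% in LMACT. With replicate number within line as a block, 4, 2 and 1 genes passed in these comparisons, against 2, 1 and 0 without the block.

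The size of the Klf4 difference depended on the arrays included, but its direction did not. In the lot with 15 arrays the mean of lines was 0.92, and in the lots with 1 array per group it was 0.19 and 0.95. Without the 4 arrays that stand apart it was 0.69 in HMACT and 0.58 in LMACT. The highest of all Klf4 values, 6.29, belongs to LMACT methamphetamine replicate 5, and without that array the LMACT difference was 0.46. The HMACT minus LMACT difference of the effects was 0.41 (95% interval -0.27 to 1.10) over all arrays, 0.16 without HMACT saline replicate 3, and 0.11 without all 4. The second Klf4 probe set was at the floor on every array and carries no information on level.

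Klf2, a close relative of Klf4, had nearly the same value on most arrays. Of its 23 values, 13 lay within 0.02 of their median, 3.55. As many arrays near their own median were seen in 33.8% of the probe sets not at the floor on every array. These include probe sets at the floor on most arrays, which can meet the rule through the floor itself. The 6 HMACT values after methamphetamine ran from 3.54 to 4.85 with a median of 3.67, against 3.28 to 3.55 with a median of 3.55 after saline. The 5 LMACT values after methamphetamine were 3.55, 3.59, 4.72, 4.59 and 3.71, against 3.42 to 3.56 with a median of 3.55 after saline. Values more than 0.02 over the shared level occurred on 7 of 11 methamphetamine arrays and on 0 of 12 saline arrays. The cut was set from Klf2's own values, and the lowest of the 7, 3.59, lay close to it. How many genes split this way was not counted, so nothing is read from these counts about the drug.

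The high Klf2 values sit on few arrays. The highest, 4.85, belongs to HMACT methamphetamine replicate 3 and the next, 4.72, to LMACT methamphetamine replicate 4, both of which stand apart; 4.59 belongs to LMACT methamphetamine replicate 5, the array with the large 3' minus 5' difference. The 2 saline arrays that stand apart had 3.55 and 3.502. Without the 4 arrays, 5 of 9 methamphetamine and 0 of 10 saline arrays lay over the shared level, and without replicate 5 of LMACT as well, 4 of 8 and 0 of 10. The part of array quality in these values was not tested.

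The Klf2 difference of methamphetamine minus saline was 0.43 (SE 0.155), or 1.34-fold, over both lines, and it did not pass the test (limma adjusted p = 1). In HMACT it was 0.35 (SE 0.214) and in LMACT 0.50 (SE 0.224), with adjusted p-values of 1. Without replicate 3 after methamphetamine the HMACT difference was 0.15, and without replicate 4 after methamphetamine the LMACT difference was 0.33. The mean difference was 0.48 in the lot with 15 arrays and 0.00 and 0.61 in the lots with 1 array per group. It was 0.25 without the 4 arrays that stand apart and 0.15 with array weights. The interaction was -0.15 (SE 0.310, adjusted p = 0.98), with a 95% interval from -0.80 to 0.50.

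Endothelial markers are given beside Klf2 and Klf4, which vascular cells also express. Of 15 listed, 11 were on the array, and 0 passed in either direction after methamphetamine, against 0.0242% of all genes called. A positive difference was seen for 10 and a negative one for 1, with a median of 0.06. Of all genes above the floor on at least 1 array, 48.3% were positive, with a median of -0.003. Among the 10, Kdr, Abcb1a and Tie1 had means of 2.31, 2.4 and 2.43, close to the floor. Their mean level per array ran from 4.44 to 5.21 in HMACT after methamphetamine and 4.48 to 4.99 after saline. In LMACT it ran from 4.60 to 5.21 after methamphetamine and 4.32 to 4.69 after saline. None of these 11 was at the floor on all arrays. The tight junction gene Cldn5 had a difference of 0.27 (SE 0.275) and the von Willebrand factor gene Vwf 0.37 (SE 0.290), with limma adjusted p-values of 1. The part of vascular cells in the values of Klf2 and Klf4 was not tested.

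Klf3 differed in opposite directions in the lines, by small amounts. In HMACT its 6 values after methamphetamine ran from 5.38 to 5.77 with a median of 5.68, against 5.59 to 6.28 with a median of 5.80 after saline. In LMACT the 5 values after methamphetamine were 5.99, 5.84, 6.03, 5.99 and 6.10, against 5.58 to 5.94 with a median of 5.80 after saline. The injection groups overlapped in both lines. After methamphetamine all HMACT values lay below all LMACT values, which 0.194% of genes show. Klf3 was chosen on these same arrays, so nothing is read from this share about Klf3.

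In HMACT the Klf3 difference of methamphetamine minus saline was -0.23 (SE 0.094), and in LMACT it was 0.22 (SE 0.099). The HMACT minus LMACT difference of these effects was -0.45 (SE 0.136, 95% interval -0.74 to -0.17), while the mean of both effects was -0.01 (SE 0.068). All 6 HMACT methamphetamine arrays lay below their saline mean and all 5 LMACT ones above theirs, a pattern met by 0.945% of genes. In the interaction 0% of genes passed in limma's fit. Klf3 was chosen for this pattern, so neither share is read as support.

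The HMACT side of the Klf3 pattern varied with the chip lot. In the lot with 15 arrays the HMACT difference was -0.06, and in the other lots, with 1 array per group each, it was -0.65 and -0.51. The LMACT difference was 0.26, 0.16 and 0.10 in the same order. The interaction was -0.32, -0.81 and -0.61. Leaving out HMACT saline replicate 5, which has the highest of the 23 Klf3 values, gave -0.37, with an HMACT difference of -0.15; leaving out the 4 arrays gave -0.36, with -0.15 in HMACT. The other Klf3 probe set, with values of 2.71 to 3.30 close to the floor, gave an interaction of -0.17 (SE 0.111).

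**Figure D2:**
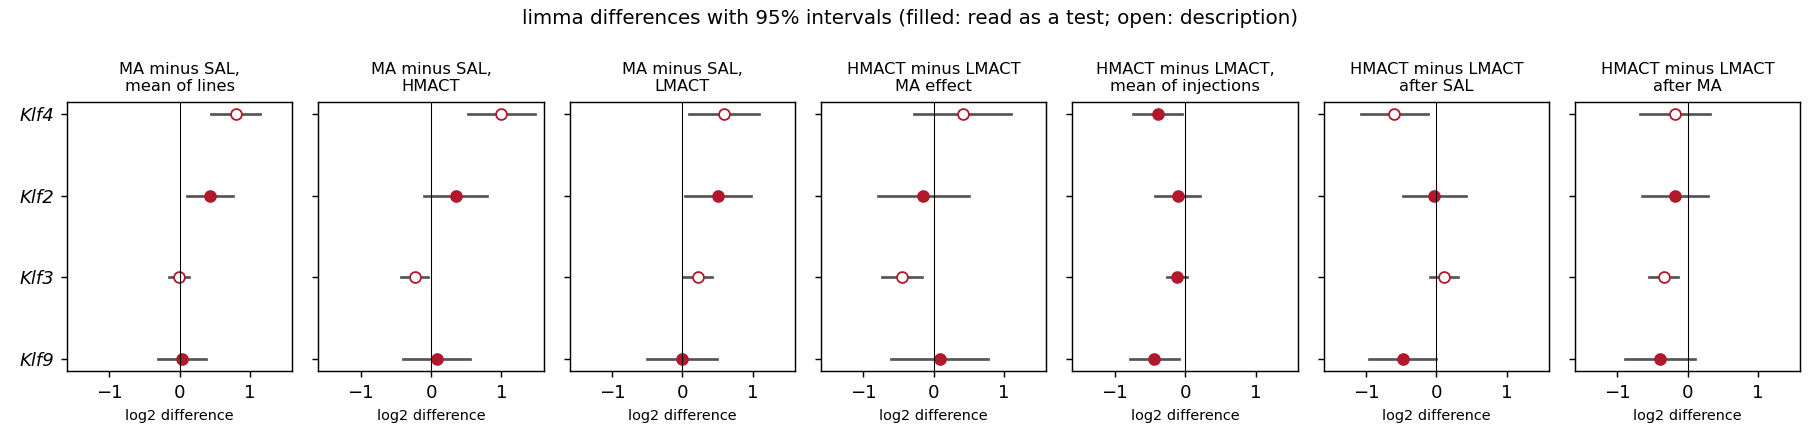
limma differences on the log2 scale (x axis) of the 4 genes (rows) in 7 comparisons (panels; MA, methamphetamine; SAL, saline), with 95% intervals; filled points are read as tests and open points as descriptions. Klf4 lies right of 0 in both lines after methamphetamine, Klf3 lies at -0.23 in HMACT and 0.22 in LMACT, and Klf9 lies near 0 after methamphetamine and at -0.44 between the lines.

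Klf9, the glucocorticoid-responsive member, showed no difference past the test after methamphetamine. Its values in HMACT ran from 9.39 to 10.26 with a median of 9.91 after methamphetamine, against 9.40 to 10.32 with a median of 9.69 after saline. In LMACT the 5 values after methamphetamine were 10.03, 10.19, 9.43, 11.24 and 10.32, against 9.94 to 10.52 with a median of 10.26 after saline. The groups overlapped in both lines, and the value of 11.24 belongs to LMACT methamphetamine replicate 5. The mean difference was 0.035 (SE 0.165, limma adjusted p = 1), with a 95% interval from -0.31 to 0.38. In HMACT it was 0.08 (SE 0.228) and in LMACT -0.01 (SE 0.239), with adjusted p-values of 1. The interaction was 0.09 (SE 0.330, adjusted p = 1), with an interval of -0.60 to 0.78, and its sign turned without LMACT methamphetamine replicate 4 (-0.12).

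Glucocorticoid responsive genes are given beside Klf9, which was not on their list. Of 24 listed genes, 23 were on the array and 19 were above the floor on at least 1 array. None passed in either direction, with p-values adjusted over all genes, of which 0.0242% passed. A positive mean difference was seen for 16 and a negative one for 3, and the median was 0.16. Over 6162 genes above the floor on at least 1 array the median was -0.003, with 48.3% positive. The genes with the smallest p-values were Txnip, a thioredoxin inhibitor (0.93, SE 0.241), Dusp1, a MAP kinase phosphatase (0.80, SE 0.207), and Cebpd, a transcription factor gene (1.31, SE 0.400), whose limma adjusted p-values were 0.894, 0.894 and 1.

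Between the lines, averaged over injections, all 4 genes had lower mean values in HMACT and 0 of them passed the test, against 0.194% of all genes called. With the replicate block 4 genes passed, against 16 without it, and again 0 of these 4 members. Klf9 differed by -0.44 (SE 0.165, limma adjusted p = 0.326), with a 95% interval from -0.78 to -0.09. Klf4 differed by -0.39 (SE 0.165, adjusted p = 0.355), with an interval from -0.73 to -0.05. Klf3 differed by -0.12 (SE 0.068, adjusted p = 0.469) and Klf2 by -0.11 (SE 0.155, adjusted p = 0.806). The lowest group for Klf4 and Klf9 was HMACT after saline, and for Klf3 it was HMACT after methamphetamine.

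The Klf9 line difference was -0.61 in the lot with 15 arrays, and -0.46 and 0.12 in the lots with 1 array per group. With array weights it passed the test (-0.42, limma adjusted p = 0.0173), a setting in which 10.1% of all genes passed. It was -0.31 without LMACT methamphetamine replicate 5, -0.43 with mean pool age as a covariate and -0.36 in pools under 100 days (adjusted p = 1 in both). The second Klf9 probe set, with values of 2.29 to 3.96, differed by -0.37 (SE 0.156). Klf9 was low on the 4 arrays that stand apart, at 9.39 to 9.67, against a median of 10.1 on the others, and 3 of the 4 are HMACT arrays. Without them the line difference was -0.445, and with the array score as a covariate it was -0.24.

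The Klf4 line difference also depended on these arrays. It was -0.26 without HMACT saline replicate 3, -0.19 without the 4 arrays, -0.24 with the array score as a covariate and -0.16 with array weights. By lot it was -0.50, -0.00 and -0.41. After saline, Klf4 differed between the lines by -0.60 (SE 0.227) and after methamphetamine by -0.18 (SE 0.238). These were -0.35 without replicate 3 of HMACT after saline and -0.055 without replicate 5 of LMACT after methamphetamine. Both comparisons share arrays with the ones on which Klf4 was chosen. Klf3 differed by 0.11 (SE 0.094) after saline and -0.34 (SE 0.099) after methamphetamine. Klf9 differed by -0.48 (SE 0.228, limma adjusted p = 0.327) after saline and -0.39 (SE 0.239, adjusted p = 1) after methamphetamine, the last -0.14 without LMACT methamphetamine replicate 5. With array weights Klf9 passed after saline (-0.57, limma adjusted p = 0.0481), a setting in which 2.86% of all genes passed. Klf2 differed by -0.03 (SE 0.214, adjusted p = 1) after saline and -0.18 (SE 0.224, adjusted p = 1) after methamphetamine. In each of these comparisons 0% of genes were called.

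**Figure D3:**
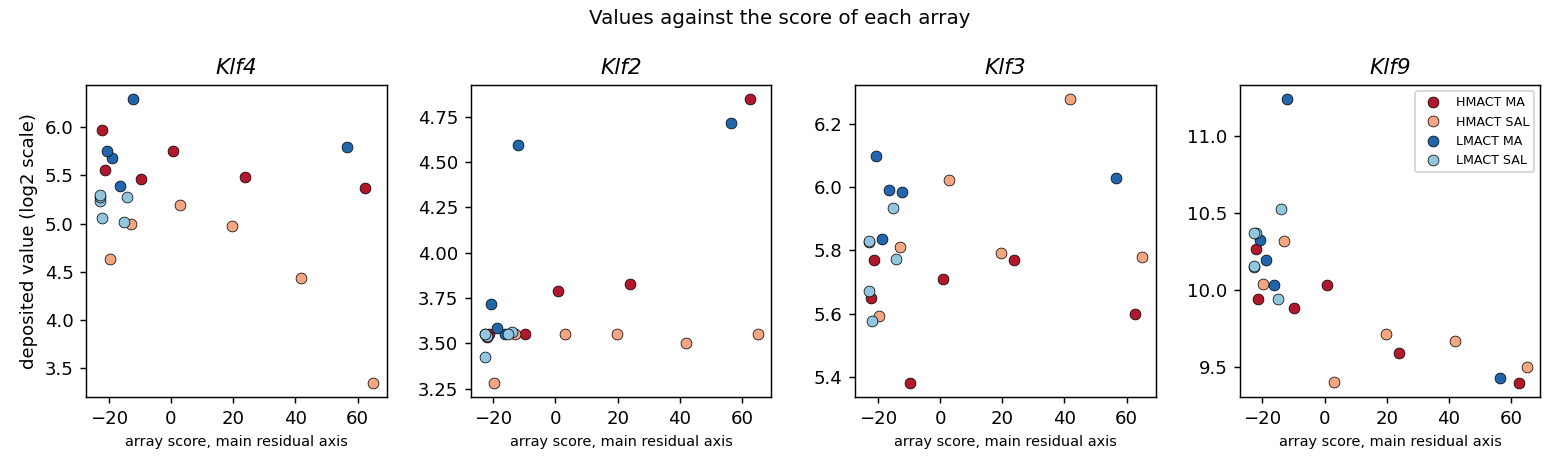
Deposited values on the log2 scale (y axis) of the 4 genes against each array's score on the main axis of residual variation (x axis, arbitrary units), with colours for line (HMACT, LMACT) and injection (MA, methamphetamine; SAL, saline). The 4 arrays with scores over 40 include the lowest Klf4 value (3.35), the 2 highest Klf2 values (4.85 and 4.72) and Klf9 values of 9.39 to 9.67.

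By group mean, Klf4 was highest in LMACT after methamphetamine (5.78), followed by HMACT after methamphetamine (5.60), LMACT after saline (5.19) and HMACT after saline (4.60). The 2 methamphetamine groups overlapped each other, and so did the 2 saline groups. The middle neighbours did not, with a lowest value of 5.365 in HMACT after methamphetamine and a highest of 5.297 in LMACT after saline. These 2 groups differ in both line and injection, and how many genes they separate was not counted. Klf4 was chosen on its difference after methamphetamine, so nothing is read from this gap. Klf3 ran from LMACT after methamphetamine (5.99) through HMACT saline (5.88) and LMACT saline (5.77) to HMACT methamphetamine (5.65), with overlap between each pair of neighbours. Klf9 was near 10.2 in both LMACT groups (10.24 after methamphetamine and 10.25 after saline) and lower in both HMACT groups (9.85 after methamphetamine and 9.77 after saline), and all its neighbours overlapped. Klf2 was highest in LMACT after methamphetamine (4.03), followed by HMACT after methamphetamine (3.85), LMACT after saline (3.53) and HMACT after saline (3.499), and each group overlapped the next.

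The rest of the family showed nothing past the test after methamphetamine. Of 22 other KLF and SP genes listed, 11 were on the array and 10 were above the floor on at least 1 array. None passed in either direction, where 0.0242% of all genes were called. A positive mean difference was seen for 1 and a negative one for 9, with a median of -0.07. Of all genes above the floor on at least 1 array, 48.3% were positive, with a median of -0.003. Among the 9, Klf1 (mean 2.32) and Klf17 (above the floor on 1 array) lay at or close to the floor. The positive one was Sp1, a ubiquitous GC box factor gene (0.10, SE 0.102). Klf6, an injury-induced family member, had differences of 0.36 in HMACT and -0.55 in LMACT, and Klf13 had -0.40 and 0.18; both were named after their values were seen. Klf10, a TGF-beta inducible early gene, had -0.02 (SE 0.236). Klf12 was at the floor on every array.

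Between the lines the other family members had a median of -0.12, and 0 passed, against 0.194% of all genes called. Sp3, an SP factor that can activate or repress, differed by -1.48 (SE 0.610, limma adjusted p = 0.346), Klf5 by 0.27 (SE 0.137, adjusted p = 0.420) and Sp4, a neuronal SP factor gene, by -0.18 (SE 0.116, adjusted p = 0.524).

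**Figure D4:**
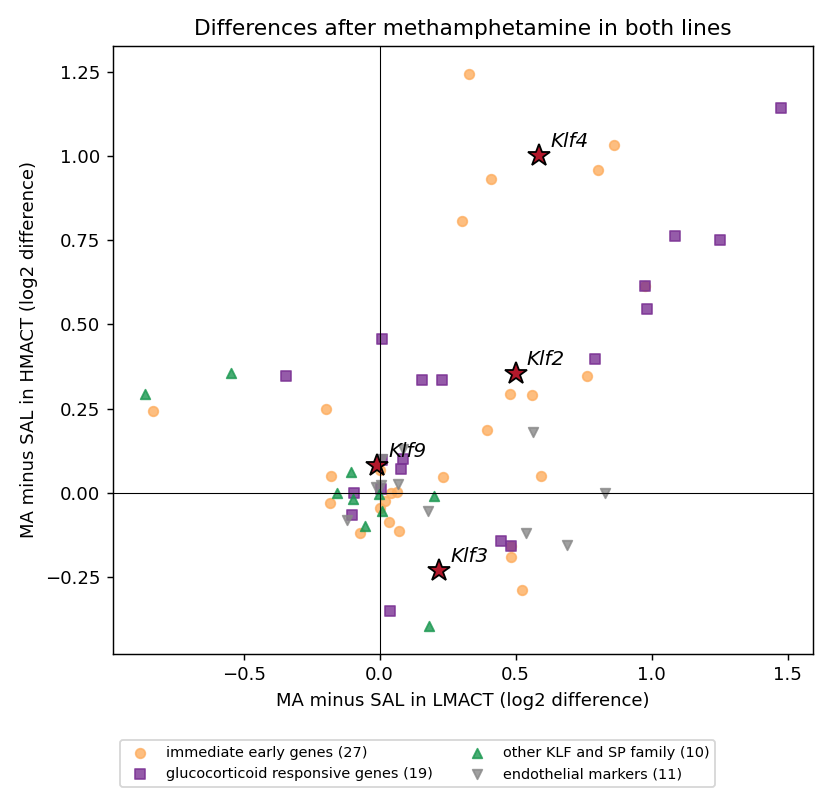
Differences of methamphetamine minus saline on the log2 scale in HMACT (y axis) and LMACT (x axis) for 4 gene lists, members above the floor on at least 1 array, with Klf2, Klf3, Klf4 and Klf9 as stars. Klf4 (1.00 in HMACT, 0.59 in LMACT) lies at the upper right, near members of both the early and the glucocorticoid responsive lists. It was chosen on its difference after methamphetamine, so nothing is read from its place. Klf3 lies below 0 in HMACT and above 0 in LMACT. The other KLF and SP genes run from -0.40 to 0.36 in HMACT and from -0.86 to 0.20 in LMACT.

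Cofactors and upstream regulators of the family gave no call after methamphetamine, where 0.0242% of all genes were called. Of 11 cofactors listed, 9 were on the array, with 6 positive and 3 negative differences and a median of 0.09. The smallest p-values were those of Crebbp, the acetyltransferase CBP (0.33, SE 0.219), the corepressor gene Sin3a (0.26, SE 0.179) and the deacetylase gene Hdac3 (0.18, SE 0.230). All 8 genes of the ERK5 and MEF2 cascade were on the array and 6 were above the floor on at least 1 array, with 4 positive and 2 negative differences and a median of 0.13. They were led by the kinase gene Map3k3 (0.31, SE 0.165) and by Mef2d (0.22, SE 0.138). Of the kinase genes, Map2k5, whose product activates ERK5, had 0.38 (SE 0.349), with -0.23 in HMACT and 0.99 in LMACT. Known endothelial targets of KLF2 and KLF4 had a median of 0.02. Of 9 on the array, 7 were above the floor on at least 1 array, with 4 positive and 3 negative differences. Cd34 had 0.09 (SE 0.040), and Thbd, the thrombomodulin gene, 0.02 (SE 0.021). Thbd was above the floor on only 3 arrays and Nos3 on 4, and Cd34, S1pr1 and Tek had means of 2.7 to 2.76. Values this close to the floor carry little information on change.

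Immediate early genes, among which Klf4 is often counted, were taken as a list without it. Of 40 listed, 29 were on the array and 27 above the floor on at least 1 array. Within the list 1 gene rose and 0 fell for the mean of lines, with p-values adjusted over all genes, of which 0.0242% passed. It was Btg2, with a difference of 0.88 (SE 0.093, limma adjusted p = 8.1e-05). The list had 19 positive and 8 negative differences and a median of 0.14. Over all genes above the floor on at least 1 array, 48.3% were positive and the median was -0.003. Atf3 had 0.95 (SE 0.185, adjusted p = 0.118) and the zinc finger gene Egr2 0.56 (SE 0.122, adjusted p = 0.237). The list's median was 0.05 in HMACT and 0.30 in LMACT.

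The genes whose values ran most like each member were found by Pearson correlation over the 23 arrays among 5307 other genes. These arrays share groups, chip lots and the main axis, and the values describe these arrays only. Klf4 and Klf3 were also chosen on these arrays, so nothing is read from which genes ran like them. Klf4 ran most like Fos (r = 0.88), the AP-1 factor gene, Egr2 (0.85) and Zfp36l1 (0.85), an mRNA decay factor gene; on the 19 arrays that do not stand apart the values were 0.79, 0.68 and 0.80. Klf2 ran most like Ercc2 (0.95), Usf1 (0.94) and Slc9a8 (0.91), which were at 0.86, 0.87 and 0.87 on the 19 arrays. For Klf9 they were Nop58 (0.91), Nipbl (0.90) and Taf1d (0.88). Klf3 had lower values, with Tmed4 (0.71), Acadl (0.69) and Spred2 (0.68).

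Among the 4 genes themselves, Klf4 and Klf2 had a correlation of 0.42 over 23 arrays and 0.73 over 19. Klf4 and Klf9 had 0.43 and 0.45. For Klf2 and Klf9 it was -0.08 and 0.56, and for Klf3 with Klf4 it was -0.00 and 0.22. The pairs with Klf2 changed most when the arrays that stand apart were left out. Among the 19, LMACT methamphetamine replicate 5 had the highest Klf2 (4.59), Klf4 (6.29) and Klf9 (11.24) values. This array is also the one named above for its control probe sets. Its weight in the correlations over 19 arrays, here and in the paragraph before, was not tested.

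Markers of other cell types had 0 members past the test in either direction after methamphetamine, against 0.0242% of all genes called. The median difference was -0.03 for microglial, -0.01 for astrocyte (4 positive, 4 negative), -0.06 for oligodendrocyte, 0.03 for striatal projection neuron and 0.05 for choroid plexus and ependymal markers. Between the lines, averaged over injections, oligodendrocyte markers had 0 positive and 6 negative differences with a median of -0.33. Over all genes above the floor on at least 1 array, 52.3% were positive. After saline 3 of these markers were positive and 3 negative, and after methamphetamine 0 and 6. The microglial median between the lines was 0.26. The microglial markers Cx3cr1 and Aif1 were at the floor on all arrays. The complement genes C1qa, C1qb and C1qc had positive line differences (0.50, 1.03 and 0.63), while Tyrobp (-0.47) and Ctss (-0.38) had negative ones. The mean microglial level per array ran from 5.02 to 6.04 in HMACT and 5.17 to 5.78 in LMACT after methamphetamine. After saline it ran from 5.07 to 6.64 in HMACT and 5.11 to 5.41 in LMACT. The part of cell composition in the line differences of Klf4 and Klf9 was not tested.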

How the data were processed

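The deposited table, made by the authors, gives log2 values, 1 per probe set and array; the scale was inferred from their range of 2.23 to 16.4. How the authors corrected background, normalized and summarised probes was not stated in the labels; the submitters' processing notes list R 2.7.1 only. Values under 2.3 were treated as the floor (44.2% of values; 2089 genes at the floor on every array). Of 12488 probe sets, 10833 map to 1 gene; symbols came from RefSeq (GRCm38.p6), matched for 10817, and the probe set with the highest mean stood for a gene, giving 8251 genes. Promoter sequences are RefSeq's of the same build, matched by symbol for all 4 genes.

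Groups came from the sample titles. Differences were fitted with limma 3.58.1 in R 4.3.3 (lmFit, contrasts.fit, eBayes) as 4 group means over 23 arrays, without covariates, in 7 comparisons, two-sided, with Benjamini-Hochberg adjustment over 8251 genes and a threshold of 0.05. The procedure was run on simulated independent normal noise with known changes. Those data lack the shared axis and the repeated values of these arrays, so the run cannot show how these affect the p-values. The labels do not say how animals were shared among pools, so p-values measure the spread between pools. No 2 arrays were alike (smallest mean absolute difference 0.074 over 253 pairs). Arrays stand apart when their score exceeds the median by 3.5 scaled median absolute deviations.

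The members, gene lists, naming rule and most alternatives were chosen with earlier results of these data known. From each list the rule takes the genes with the smallest p-values in the mean methamphetamine comparison; for several lists not all of them are printed. The lists were other KLF and SP genes, KLF cofactors, the ERK5 and MEF2 cascade, endothelial targets, immediate early and glucocorticoid responsive genes, and markers of endothelial, microglial, astrocyte, oligodendrocyte, striatal projection neuron, and choroid plexus and ependymal cells. Lists are described by counts and medians over members above the floor on at least 1 array. Alternatives were other normalization, centring, filters, probe set use, eBayes settings, array weights, chip lot, age, a block on replicate number, the groups compared alone, and leaving out arrays. The lot with 1 array was counted with the lot whose number differs in 1 digit. Protein sequences were not used here. The number of arrays limits the precision.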

Additional observations from a re-analysis of the deposited data

Results flagged for a closer look

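In the 16 groups of Klf values on the main probe sets, 3 had a single array far from the others, and chance gives about 1 in 20 groups. All 3 belong to Klf2, where most arrays share a value near 3.55, so that the range of a group is narrow. They are HMACT methamphetamine replicate 3 at 4.85 (the nearest array at 3.83), HMACT saline replicate 6 at 3.28 (nearest 3.502) and LMACT saline replicate 1 at 3.42 (nearest 3.54).

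Klf3 is listed because every HMACT array after methamphetamine lay below the saline mean of its line and every LMACT array lay above its own. The HMACT minus LMACT difference of the effects was -0.45. Klf3 was chosen for this pattern, so the difference was not tested.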

How the results depend on the processing

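The signs of the large differences were steadier than those of the small ones. Over 15 alternatives and the leaving out of each array, Klf4 stayed positive after methamphetamine in both lines, Klf3 stayed negative in HMACT and positive in LMACT, Klf2 stayed positive after methamphetamine, and Klf9 and Klf4 stayed negative between the lines. The number of arrays and, for Klf2 and the second probe sets, low signal limit the precision. Where a value below changed sign or side of the threshold, the cause was not tested.

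Signs that turned belong to differences smaller than their errors or close to them. For Klf2, the interaction was 0.07 in the largest chip lot and 0.113 with the array axis as covariate, the line difference after saline was 0.027 with median centring, and that after methamphetamine was 0.035 in the largest lot. For Klf3, the mean difference after methamphetamine was 0.006 with quantile normalization, 0.001 with centring, 0.023 with array weights, 0.101 in the largest lot and 0.030 without the 4 arrays that stand apart. For Klf9 with the mean of all probe sets, the difference after methamphetamine was -0.024 over lines, -0.050 in HMACT and 0.003 in LMACT, and the interaction -0.053. In the largest lot the Klf9 values were -0.072 in HMACT, 0.232 in LMACT and -0.304 for the interaction; with the axis as covariate they were -0.018, 0.153 and -0.171. Klf9 in LMACT was 0.015 with lot as a covariate and 0.196 without the 4 arrays, where the interaction was -0.122. With array weights Klf9 passed between the lines (-0.419, limma adjusted p = 0.0173, against 0.128 to 1 in the other 13 alternatives) and after saline (-0.572, adjusted p = 0.0481), a setting in which 10.1% and 2.86% of all genes passed, against 0.194% and 0% without weights. With the mean of all probe sets Klf4 in HMACT was 0.500, averaged with a probe set at the floor, and Klf3 between lines after methamphetamine was -0.177.

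Leaving out each array in turn gave these ranges where a sign turned. The Klf2 interaction ran from -0.349 to 0.021 (without LMACT methamphetamine replicate 4), and its line difference after saline from -0.053 to 0.012. The Klf3 mean difference after methamphetamine ran from -0.036 to 0.033. The Klf9 difference after methamphetamine ran from -0.090 to 0.137 over lines, from -0.005 to 0.186 in HMACT and from -0.257 (without LMACT methamphetamine replicate 5) to 0.196 (without replicate 4) in LMACT, and its interaction from -0.118 to 0.335.

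The number of genes past the threshold was 2 for the mean difference after methamphetamine, 1 in HMACT, 16 between the lines, and 0 in LMACT, in the interaction, and between the lines after saline and after methamphetamine; 124, 128, 1045, 275, 216, 1256 and 354 genes had an unadjusted p under 0.05 in that order. It changed with the setting as follows. For the mean difference after methamphetamine it was 4 without the dimmest 40% of genes, 6 with array weights, 0 in the largest lot, 1 in pools under 100 days, 4 with the replicate block, 5 without the 4 arrays, 7 with the axis as covariate, and 3 with centring, quantile normalization or no genes at the floor. In HMACT it was 2 without dim genes, with array weights, with the replicate block and with the axis, 3 without the 4 arrays, and 0 in the largest lot and with the groups compared alone. In LMACT it was 31 with array weights and 1 with centring, without dim genes, without genes at the floor, in pools under 100 days, with the replicate block, without the 4 arrays, with the axis and with the groups compared alone. Between the lines it was 26 with quantile normalization, 34 with centring, 29 without dim genes, 24 without genes at the floor, 22 with lot as a covariate, 830 with array weights, 1 in the largest lot, with age as a covariate and in young pools, 4 with the replicate block, 46 without the 4 arrays and 37 with the axis. After saline it was 236 with array weights and 1 without the 4 arrays and with the groups compared alone. After methamphetamine it was 136 with array weights, 4 with centring, 2 with quantile normalization, 3 without the 4 arrays and 14 with the axis. Leaving out single arrays gave 2 to 5, 1 to 2, 0 to 2 (in LMACT), 9 to 76 (between the lines, the highest without LMACT methamphetamine replicate 4 and the lowest without replicate 6), 0 to 2 after saline and 0 to 3 after methamphetamine. The interaction stayed at 0. Klf2 lay over its shared value on 7 methamphetamine arrays, on 5 without the 4 arrays and on 4 also without LMACT methamphetamine replicate 5, settings chosen after seeing the data.

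Whether replicate numbers pair the arrays of a line was not settled. In 11 of 11 cases the arrays with the same number shared a chip lot, with the lot numbers as used here, and in 3 they had the same mean pool age. The correlations of their deviations ran from -0.618 to 0.876 in HMACT and from -0.14 to 0.398 in LMACT, and 8 of 11 were over 0.1. With the replicate block the limma values were 0.425 for Klf2 and 0.794 for Klf4 after methamphetamine and -0.434 for Klf9 between lines, and no call on Klf2 or Klf9 changed.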
